A study of Mus musculus with 6 samples.

Results

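The genes described here are 43 markers and products of hepatic stellate cells and of the extracellular matrix, listed by function, with no measured value in the rule. They comprise 10 cell markers, 3 proteoglycans, 9 matrix glycoproteins and elastic fibre proteins, 9 enzymes and inhibitors of matrix remodelling, and 12 collagen chains. Each gene was read from a probe set that the platform annotation gives exactly 1 gene symbol, and where several existed the one with the highest mean stood for the gene. On this basis 41 of the 43 were measured, of 22180 genes in all. Fbn1 had no such probe set, and the 2 probe sets of Loxl2 also carry a second symbol, so neither has a value here.

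Hepatic stellate cells lie in the space between hepatocytes and the sinusoidal endothelium, where they store vitamin A as retinyl esters. After injury they can turn into contractile myofibroblasts, which make smooth muscle actin, fibrillar collagens and the enzymes that crosslink or cleave them. Small leucine-rich proteoglycans such as decorin coat collagen fibrils, and matricellular proteins such as periostin and SPARC act on cells and fibrils without forming the scaffold themselves.

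Liver tissue came from 6 mice on the C57BL/6J strain, 3 wild type controls and 3 ErbB4-/- mice, with 1 array per mouse. The ErbB4-/- mice lack the receptor tyrosine kinase ErbB4 outside the heart, where a transgene supplies it (ErbB4-/-HER4heart), and without the transgene they die as embryos. The line had been backcrossed to C57BL/6J for more than 15 generations. All mice of both groups received a single dose of DEN (diethylnitrosamine in this field, a liver carcinogen) at postnatal day 14, so no group is free of the carcinogen. The treatment protocol gives 32 weeks to dissection for every mouse, whereas a second label has the controls at 32, 33 and 34 weeks and the ErbB4-/- mice at 35, 36 and 37. The comparison asks how transcript levels in the carcinogen-treated liver differ with the ErbB4 genotype, and the transgene cannot be told apart from it. On the second label every ErbB4-/- mouse was dissected later than every control, so week and genotype are separable only by the weeks within a group.

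Values are log2 expression as the authors deposited them, comparable between arrays for 1 gene but not between genes. Array medians lay between 4.83 and 4.86. Erbb4 itself read 5.42, 5.73 and 5.42 in control and 4.75, 5.36 and 5.61 in ErbB4-/- liver, so the groups overlapped and this probe set, whose place relative to the deleted part is not known here, does not check the labels. On the first principal component, which held 36.1% of the variance, ErbB4-/- replicate 3 stood farthest from the others at 33.3, and on the second, with 25.8%, control replicate 1 stood farthest at 25.1. Control replicate 1 also had a mean of 6.06 for 8 male-biased liver genes, against 9.39 to 9.70 on the other arrays. Its mean for 6 female-biased liver genes was 7.84, against 5.65 to 6.10 on the other arrays. The cause of this was not tested. The 9 hepatocyte markers averaged 12.63 to 12.87 on all 6 arrays, as the label of liver tissue implies. All differences below are ErbB4-/- minus control, tested with limma across all genes and adjusted by the Benjamini-Hochberg method, with means given ± SD over n = 3 arrays and SE for the standard error from limma.

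Matrix proteoglycans, periostin and several stellate cell markers measured lower in ErbB4-/- liver. The collagen chains lay nearer to control, with 10 of 12 also lower and a median difference of -0.12. None of the 41 genes passed an adjusted p of 0.05 in limma (lowest adjusted p = 0.549), where 1 of all 22180 genes, or 0.00451%, passed. At an unadjusted p under 0.05, 7 of the 41 were lower and 0 were higher, against 2.94% lower and 2.77% higher among all genes. The mean was lower in ErbB4-/- liver for 33 of 41 genes, against 45.3% of all genes, and the median difference was -0.16 against 0.01 over all genes. In 9 of 41 every ErbB4-/- array lay below every control array, as it did in 3.81% of all genes and in 5.73% of the genes at or above the median level. In 0 of 41 did every ErbB4-/- array lie above every control array, which was the case in 4.52% of all genes. With the labelled week as a covariate the median difference of the 41 genes was 0.11, so that the direction of the whole turned. It was 0.18 for the cell markers, -0.14 for the proteoglycans and 0.081 for the collagens. The labelled weeks rise with the replicate number in each group, so this fit takes its slope from the order of replicates. In tissue RNA, fewer cells of a type and less RNA per cell cannot be told apart. The 41 genes were listed with earlier results of these data known, so these counts carry no test.

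**Figure D1:**
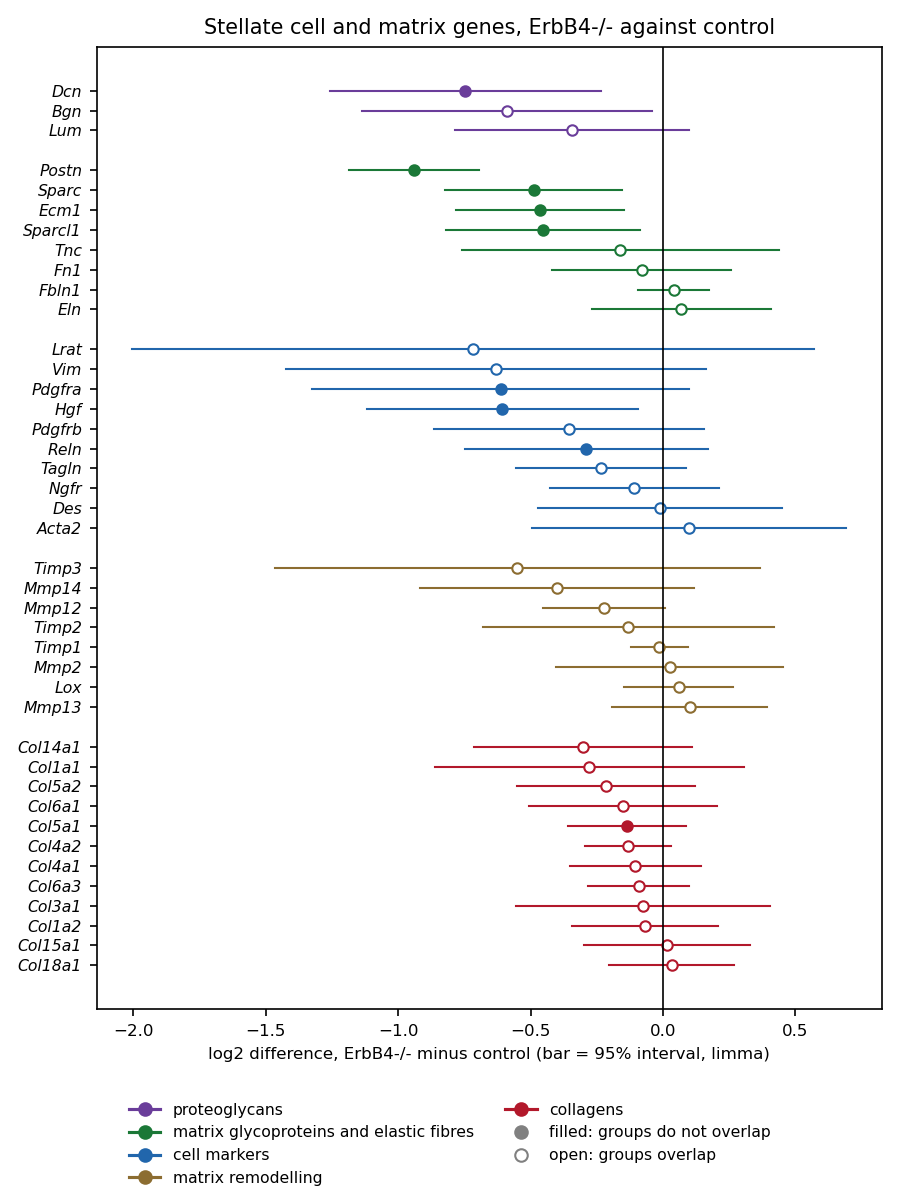
Log2 difference of each measured gene, ErbB4-/- minus control, with the 95% interval from limma on the horizontal axis and the genes grouped by role on the vertical axis. Filled points mark the 9 genes whose groups do not overlap. Postn lies farthest from 0 at -0.94, and all 12 collagen chains lie between -0.30 and 0.03.

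Single arrays carried much of the spread. ErbB4-/- replicate 3 held the lowest value for 28 of the 41 genes, or 68.3%, against 22.8% of all genes, and control replicate 1 held the highest for 20, or 48.8%, against 19.2% of all genes. Tied values were counted on each array that shared them. Without both of these arrays the median difference of the 41 genes was -0.08. The count without overlap was 14 without control replicate 2 and 19 without ErbB4-/- replicate 1, where the share of all genes was 7.43% and 8.47%. Of the 9 genes without overlap 6, namely Postn, Dcn, Ecm1, Sparc, Hgf and Pdgfra, stayed lower without overlap under each other normalization that was run. Leaving out an array cannot make separated groups overlap, and each of the 6 has 1 probe set. The left-out arrays and the probe set rule therefore could not have changed this. The other 3, Sparcl1, Reln and Col5a1, were separated by less than 0.01 on the log2 scale. Of the 6, Hgf and Pdgfra turned sign with the labelled week as a covariate.

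Of the 8 matrix glycoproteins 6 had lower means, with a median difference of -0.31. Between the groups 4 did not overlap, against 3.81% of all genes on the lower side. Postn had the widest gap of these 4. Periostin, its product, is a matricellular protein that binds collagen and integrins and is made by activated fibroblasts. Its 3 control arrays, in the order of replicates 1 to 3 kept throughout, read 7.32, 7.46 and 7.12, and its 3 ErbB4-/- arrays 6.28, 6.41 and 6.39. All 3 ErbB4-/- arrays lay at least 0.71 below the lowest control, and here ErbB4-/- replicate 3 was not the lowest array nor control replicate 1 the highest. The means were 7.30 ± 0.17 and 6.36 ± 0.07, a difference of -0.94 (SE 0.10), 95% interval from -1.19 to -0.69. Its unadjusted p of 1.13e-04 was the third smallest of all 22180 genes, with rank 3, but it did not pass (limma, adjusted p = 0.549). The difference lay between -1.03 and -0.86 with any 1 array left out and was -0.87 with the labelled week as a covariate.

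Ecm1 encodes extracellular matrix protein 1, a secreted glycoprotein of the liver matrix. It measured 9.25, 9.63 and 9.36 in control and 9.05, 9.02 and 8.78 in ErbB4-/- liver, without overlap. Its difference was -0.46 (SE 0.13, limma adjusted p = 0.760). Sparc encodes a collagen-binding matricellular protein made by stellate and endothelial cells, and measured 7.40, 7.57 and 7.70 in control and 7.27, 7.09 and 6.85 in ErbB4-/- liver. Its groups did not overlap either, and its difference was -0.49 (SE 0.13). Sparcl1, a relative of Sparc, measured 6.77, 7.06 and 7.03 in control and 6.77, 6.45 and 6.28 in ErbB4-/- liver. Control replicate 1 and ErbB4-/- replicate 1 were nearly equal for it, and the difference of -0.45 did not pass.

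The remaining glycoproteins showed no such separation. Fn1 encodes fibronectin, which hepatocytes also secrete into plasma, and measured 13.12, 12.62 and 12.77 in control and 12.72, 12.72 and 12.83 in ErbB4-/- liver. Its groups overlapped, with a difference of -0.08 and a 95% interval from -0.42 to 0.26. The difference turned to 0.06 without control replicate 1. Differences were -0.16 for Tnc, the injury-induced matrix protein tenascin C, 0.04 for Fbln1 and 0.07 for Eln, the elastin gene. These 3 lay below the median level of all genes, where a log2 value can be background, and Fbln1 had 1 identical value on 5 of 6 arrays.

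To show the start regions of genes that separated the groups beside one that did not, the 250 bases before the transcription start are printed for Postn, Ecm1, Sparc and Col1a2, chosen after their values were seen. They are taken from RefSeq on GRCm38.p6, written from the far end to the start on the strand of the gene, at chr3:54360857-54361106 on the plus strand, chr3:95739570-95739819 on the minus strand, chr11:55420081-55420330 on the minus strand and chr6:4505368-4505617 on the plus strand. Postn has 2 entries and the downstream one is shown. Capitals mark matches on either strand to TATAA, the core of the TATA box, and to TGANTCA, the AP-1 site bound by Fos and Jun proteins.
Postn: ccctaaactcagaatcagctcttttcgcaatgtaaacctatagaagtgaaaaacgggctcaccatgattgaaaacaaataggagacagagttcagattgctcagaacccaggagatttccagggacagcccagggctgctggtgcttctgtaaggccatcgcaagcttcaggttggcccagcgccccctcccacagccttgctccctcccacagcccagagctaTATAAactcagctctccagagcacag
Ecm1: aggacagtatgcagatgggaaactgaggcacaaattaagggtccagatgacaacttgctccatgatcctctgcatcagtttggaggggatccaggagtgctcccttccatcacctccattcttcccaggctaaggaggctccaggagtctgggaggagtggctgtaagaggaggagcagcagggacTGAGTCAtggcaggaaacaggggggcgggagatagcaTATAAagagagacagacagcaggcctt
Sparc: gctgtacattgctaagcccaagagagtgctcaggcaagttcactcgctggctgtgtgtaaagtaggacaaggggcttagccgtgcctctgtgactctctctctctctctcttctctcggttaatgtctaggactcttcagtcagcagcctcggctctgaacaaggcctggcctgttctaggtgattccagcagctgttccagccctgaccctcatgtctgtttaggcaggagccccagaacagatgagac
Col1a2: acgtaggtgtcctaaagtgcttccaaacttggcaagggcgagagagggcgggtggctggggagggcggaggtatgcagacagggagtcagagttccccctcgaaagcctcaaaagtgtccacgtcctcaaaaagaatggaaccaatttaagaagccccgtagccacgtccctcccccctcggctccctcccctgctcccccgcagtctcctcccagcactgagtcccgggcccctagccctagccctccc
Postn held TATAA 26 bases before the start, and Ecm1 held it 27 bases before the start with TGAGTCA 64 bases before it, the positions being those of the first base of each match. Neither motif was found in these windows of Sparc and Col1a2. Of the 43 listed genes 30 had an entry, 8 of which held TATAA and 4 TGANTCA. Among all 32851 windows 22.8% held TATAA and 6.75% held TGANTCA. The listed genes were counted by gene, with a match in any entry, so these counts and shares differ in unit. These matches describe the letters and were not related to binding.

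All 3 proteoglycans measured lower in ErbB4-/- liver, with a median difference of -0.59. Dcn encodes decorin, a proteoglycan that binds collagen fibrils and TGF-beta. It measured 11.18, 11.49 and 11.44 in control and 10.99, 10.65 and 10.23 in ErbB4-/- liver, without overlap. Means were 11.37 ± 0.17 and 10.62 ± 0.38, a difference of -0.75 (SE 0.21) that did not pass (limma, adjusted p = 0.760). Bgn encodes biglycan, the closest relative of decorin, and measured 10.72, 10.95 and 10.96 in control and 10.74, 10.22 and 9.90 in ErbB4-/- liver. ErbB4-/- replicate 1 lay within the controls and the other two lay below them. Its difference was -0.59 (SE 0.22), and a second, dimmer probe set gave -0.34. Lum, the lumican gene, measured 6.23, 6.16 and 6.19 in control and 6.16, 5.92 and 5.47 in ErbB4-/- liver, a difference of -0.34 (SE 0.18) that was -0.15 without ErbB4-/- replicate 3. For all 3 genes the controls lay close together while the ErbB4-/- arrays spread, with replicate 1 nearest to control and replicate 3 lowest.

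**Figure D2:**
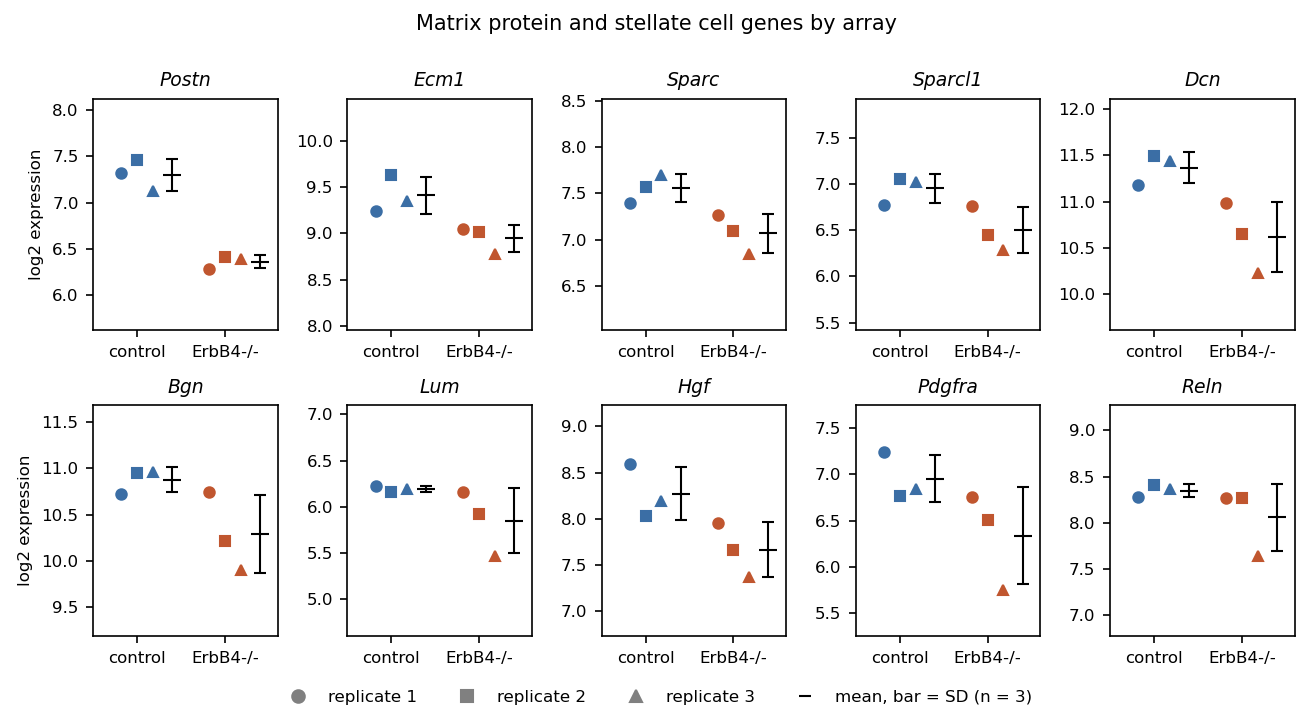
Log2 expression by array of 4 matrix glycoprotein genes, 3 proteoglycan genes and 3 stellate cell markers, with controls in blue, ErbB4-/- in orange, a symbol per replicate and the mean with SD in black. Every panel spans the same range of 2.5 log2 units. Postn is separated by 0.71 with little spread, whereas all other genes shown are lowest in ErbB4-/- replicate 3.

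Of the 10 cell markers 9 had lower means in ErbB4-/- liver, with a median difference of -0.32. Between the groups 3 did not overlap, against 3.81% of all genes on the lower side. The median was -0.20 without ErbB4-/- replicate 3, and with the labelled week as a covariate it turned to 0.18 with 3 of 10 lower. The growth factor and receptor genes are described first. Hgf encodes hepatocyte growth factor, which stellate cells release and hepatocytes sense, and measured 8.59, 8.03 and 8.19 in control and 7.96, 7.67 and 7.37 in ErbB4-/- liver. Its difference was -0.61 (SE 0.21, limma adjusted p = 0.760) and turned sign with the labelled week as a covariate. Pdgfra encodes a receptor of platelet-derived growth factor, and measured 7.24, 6.77 and 6.84 in control and 6.76, 6.50 and 5.75 in ErbB4-/- liver. Neither gene overlapped between the groups, though for Pdgfra the gap was 0.01. Its difference was -0.61 and became -0.32 without ErbB4-/- replicate 3 and 0.44 with the labelled week as a covariate. Pdgfrb, the receptor gene most used to mark stellate cells and pericytes, measured 6.89, 6.69 and 6.89 in control and 6.80, 6.57 and 6.03 in ErbB4-/- liver. The groups overlapped, with a difference of -0.35 and an SE of 0.21, and the difference was -0.14 without ErbB4-/- replicate 3 and 0.23 with the labelled week as a covariate. Ngfr, a neurotrophin receptor gene, differed by -0.11.

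Lrat, Reln and Des are used as markers of stellate cells. Lrat, the gene of the enzyme that makes retinyl esters, measured 6.77, 8.21 and 8.21 in control and 7.75, 6.82 and 6.48 in ErbB4-/- liver. Control replicate 1 lay with the lower ErbB4-/- arrays. The difference was -0.72 with a 95% interval from -2.00 to 0.57 and ran from -1.20 without control replicate 1 to -0.45 without ErbB4-/- replicate 3. Reln encodes reelin, a secreted glycoprotein that marks stellate cells in liver, and measured 8.28, 8.40 and 8.37 in control and 8.27, 8.27 and 7.64 in ErbB4-/- liver. Only ErbB4-/- replicate 3 stood apart for it, and without that array its difference of -0.29 became -0.08. Des, the intermediate filament gene desmin, measured 5.77, 5.78 and 6.20 in control and 6.00, 6.13 and 5.59 in ErbB4-/- liver, a difference of -0.01.

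Genes of the contractile myofibroblast state did not separate the groups. Acta2, alpha smooth muscle actin, measured 7.49, 6.83 and 6.84 in control and 7.49, 6.93 and 7.04 in ErbB4-/- liver. Replicate 1 of each group was the highest, and the difference was 0.10 with a 95% interval from -0.49 to 0.69. Tagln, the actin-binding protein transgelin, measured 6.74, 6.35 and 6.33 in control and 6.34, 6.24 and 6.14 in ErbB4-/- liver. Its difference was -0.23 (SE 0.13), and the groups overlapped. Vim, the filament gene vimentin of mesenchymal cells, measured 9.48, 8.34 and 8.58 in control and 8.39, 8.22 and 7.90 in ErbB4-/- liver. Control replicate 1 was high for it, the difference was -0.63 (SE 0.32), or -0.29 without that array, and a second, dimmer probe set gave -0.08.

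Of the 12 collagen chains 10 had lower means in ErbB4-/- liver, but by little, with a median difference of -0.12 and a range from -0.30 to 0.03. In 0 of 12 was the unadjusted limma p under 0.05, which is near the shares of all genes, 2.94% lower and 2.77% higher. Col5a1 alone did not overlap between the groups, or 1 of 12, against 3.81% of all genes on the lower side. Fibrillar type I collagen, the main collagen of scar, is built from the chains of Col1a1 and Col1a2. Col1a1 measured 6.60, 6.04 and 6.17 in control and 6.42, 5.76 and 5.80 in ErbB4-/- liver. Its difference was -0.28 with a 95% interval from -0.86 to 0.31, and ran from -0.49 without ErbB4-/- replicate 1 to -0.11 without control replicate 1. Col1a2 measured 6.34, 6.12 and 6.12 in control and 6.32, 6.03 and 6.03 in ErbB4-/- liver. It differed by -0.07, with a 95% interval from -0.34 to 0.21. Both chains were highest in replicate 1 of each group, the same arrays that were highest for Acta2. Control replicate 1 and ErbB4-/- replicate 1 were also highest for Timp2 and Eln, so that these arrays held the top 2 values in 5 of 41 genes, or 12.2%, against 4.44% of all genes. This grouping was noticed in the values and has no test.

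Col3a1, the type III chain that forms fibrils with type I, measured 7.46, 6.84 and 6.83 in control and 6.90, 7.13 and 6.87 in ErbB4-/- liver. Control replicate 1 alone was high, and the difference of -0.08 turned to 0.13 without it. The basement membrane chains lay as close. Col4a1 measured 6.55, 6.79 and 6.45 in control and 6.55, 6.49 and 6.43 in ErbB4-/- liver, a difference of -0.10. Col4a2, which pairs with it, measured 6.24, 6.18 and 6.05 in control and 6.05, 6.03 and 6.00 in ErbB4-/- liver, a difference of -0.13 (SE 0.06, limma adjusted p = 0.760). Both groups touched at 6.05 for Col4a2.

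Type V chains regulate the width of fibrils. Col5a1 measured 6.09, 6.23 and 6.10 in control and 6.09, 6.09 and 5.84 in ErbB4-/- liver, a difference of -0.14. Col5a2 measured 5.03, 4.86 and 4.90 in control and 4.86, 4.86 and 4.43 in ErbB4-/- liver, a difference of -0.22. For both, ErbB4-/- replicate 3 was the lowest array. Col14a1, a fibril-associated collagen that decorin can bind, had the lowest difference of the chains, at -0.30 (SE 0.16), or -0.13 without ErbB4-/- replicate 3. It measured 7.67, 7.77 and 7.77 in control and 7.73, 7.49 and 7.09 in ErbB4-/- liver. The microfibrillar chains Col6a1 and Col6a3 differed by -0.15 and -0.09, and the basement membrane chains Col15a1 and Col18a1, the source of endostatin in the latter case, by 0.02 and 0.03. Col5a2 and Col15a1 lay below the median level of all genes, where a log2 value can be background.

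**Figure D3:**
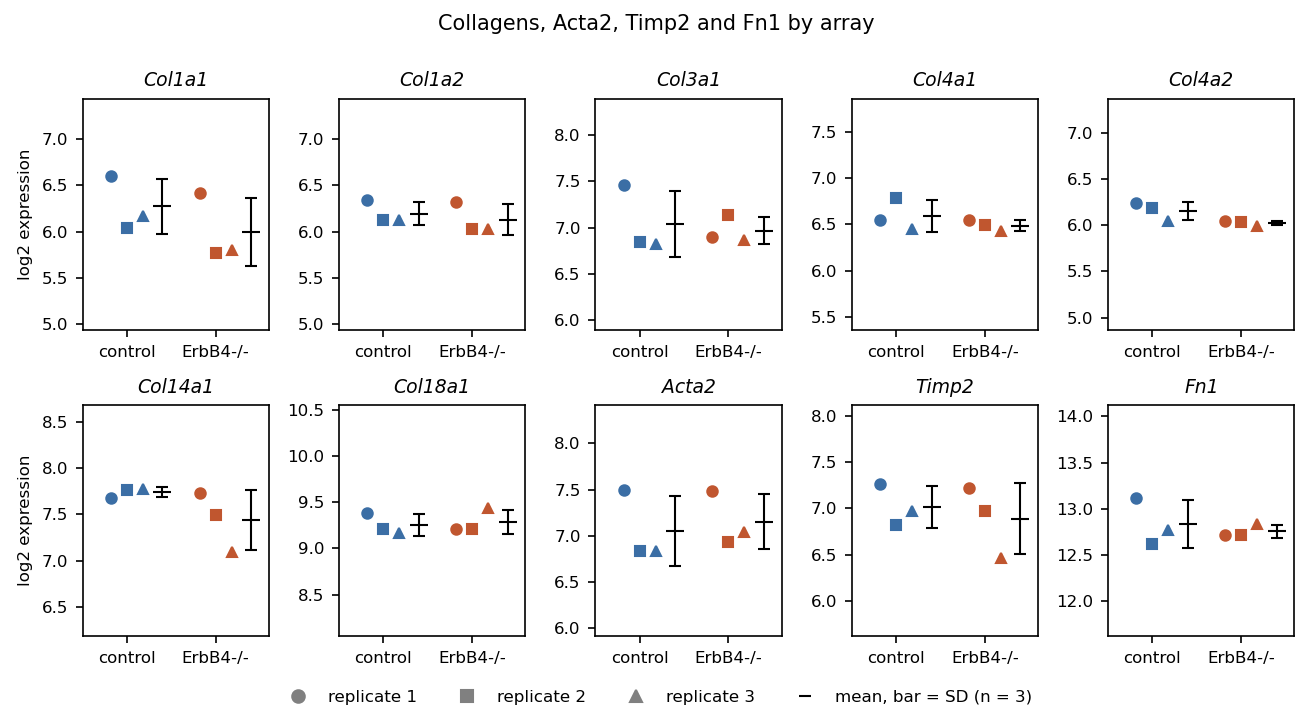
Log2 expression by array of 7 collagen chains, Acta2, Timp2 and Fn1, drawn as in the plot of matrix glycoprotein genes, with every panel spanning 2.5 log2 units. The groups overlap in all 10 panels, and replicate 1 of each group is highest for Col1a1, Col1a2, Acta2 and Timp2.

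Collagens were set against the other groups within each array, which removes only what an array adds equally to both on the log2 scale. In control the proteoglycans averaged 9.48 and the collagens 6.48, and the part of signal level in these differences was not tested. The mean of the proteoglycans minus that of the collagens, counted from its control mean, was -0.20, 0.07 and 0.13 in control and -0.14, -0.45 and -0.71 in ErbB4-/- replicates 1 to 3. The groups overlapped at replicate 1. The mean of the cell markers minus that of the collagens was -0.01, -0.08 and 0.10 in control and -0.05, -0.21 and -0.40 in ErbB4-/- liver, again overlapping at replicate 1. The matrix glycoproteins minus the collagens gave -0.06, 0.04 and 0.02 in control and -0.15, -0.19 and -0.22 in ErbB4-/- liver, without overlap. The lists were chosen with results known, so these differences between groups of genes were given no test, and 3 against 3 arrays cannot give a permutation p below 0.10.

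Enzymes and inhibitors of matrix remodelling differed little, with a median of -0.07, 5 of 8 lower and 0 without overlap. Among all genes 3.81% were lower without overlap and 4.52% higher. Timp3, an inhibitor that binds to the matrix itself, measured 6.75, 6.88 and 7.04 in control and 7.01, 6.46 and 5.55 in ErbB4-/- liver. ErbB4-/- replicate 1 lay among the controls and replicate 3 far below, with a difference of -0.55 and a 95% interval from -1.47 to 0.37. It was -0.15 without ErbB4-/- replicate 3 and -0.88 without ErbB4-/- replicate 1. Mmp14, a membrane-bound protease that activates Mmp2, measured 9.004, 8.36 and 8.36 in control and 8.07, 8.39 and 8.05 in ErbB4-/- liver. Control replicate 1 was high for it and the difference was -0.40 (SE 0.21), or -0.19 without that array. Mmp12, the macrophage elastase, measured 4.52, 4.44 and 4.50 in control and 4.24, 4.44 and 4.11 in ErbB4-/- liver, and Mmp13, an interstitial collagenase, 3.59, 3.53 and 3.34 against 3.62, 3.39 and 3.75. Both lay below the median level of all genes, with differences of -0.22 and 0.10. The inhibitor genes Timp1 and Timp2 differed by -0.01 and -0.13, the gelatinase gene Mmp2 by 0.03 and Lox, the crosslinking enzyme lysyl oxidase, by 0.06.

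Other genes of the matrix, from lists drawn up beside the 43, had a median difference nearer 0, with no test of that contrast. Of 80 further collagen, matrix, processing and receptor genes 0 passed, 52 were lower and 28 higher, the median difference was -0.07, and 9 of 80 did not overlap on the lower side against 1 on the higher side, beside 3.81% and 4.52% of all genes. The counts without overlap that follow are on the lower side, with the same 3.81% of all genes beside them. The 16 further collagens split evenly, with 8 lower, 8 higher and a median of 0.02. So did the 20 collagen processing and remodelling enzymes, with 10 lower, 10 higher, a median of -0.03 and 3 without overlap. Among these enzymes Loxl3 differed by -0.50 and Timp4 by 0.47. Matrix receptors had 14 of 15 lower with a median of -0.16, and the 4 without overlap were Sdc4, a heparan sulfate proteoglycan of the cell surface, at -0.39, and the integrin chains Itgb3 at -0.61, Itga1 at -0.35 and Itga2 at -0.24. Of 17 other stellate cell markers 12 were lower with a median of -0.23. The 3 without overlap were the collectin genes Colec10 at -0.76 and Colec11 at -0.26 and the guanylate cyclase subunit gene Gucy1a1 at -0.50. None of them passed (limma, adjusted p = 0.760). The 5 higher were Gfap at 0.18, Adamtsl2 at 0.14, Cxcl12 at 0.13, Hand2 at 0.06 and Lhx2 at 0.06. Smooth muscle markers had a median of -0.05 over 8 genes, and portal fibroblast and mesothelial markers 0.03 over 10.

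Markers of other sinusoidal cells were, like these genes, lowest in ErbB4-/- replicate 3. Among the controls, replicate 1 was the lowest for endothelial markers at -0.26 from the control mean and for macrophage markers at -0.10. The same held for the proteoglycans at -0.10 and the other stellate cell markers at -0.06. Control replicate 1 was the highest for the cell markers at 0.08, collagens at 0.10, matrix glycoproteins at 0.03 and remodelling genes at 0.07. Endothelial markers, of which 14 of 15 were lower in ErbB4-/- liver, averaged 8.01 to 8.47 in control and 6.87 to 8.08 in ErbB4-/- liver. Kupffer cell and macrophage markers, 14 of 14 lower, averaged 8.64 to 8.90 and 7.45 to 8.26. In ErbB4-/- replicate 3 the means of the groups, counted from control, were -0.94 for proteoglycans, -0.63 for cell markers, -1.40 for endothelial markers and -1.29 for macrophage markers, against 0.03 for hepatocyte markers. Immediate early genes, 12 of 12 lower, averaged 9.29 to 10.23 in control and 6.69 to 9.05 in ErbB4-/- liver, lowest in the same replicate. Neutrophil markers, 11 of 11 lower, averaged 5.28 to 7.12 and 4.63 to 5.02, with control replicate 2 low among controls. Mmp8, a neutrophil collagenase from the list of processing and remodelling enzymes, differed by -2.03. No marker is at 0, since the lowest log2 value of any gene was 2.00. The part of these cell types in the values of Dcn, Sparc and the other genes was not tested.

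**Figure D4:**
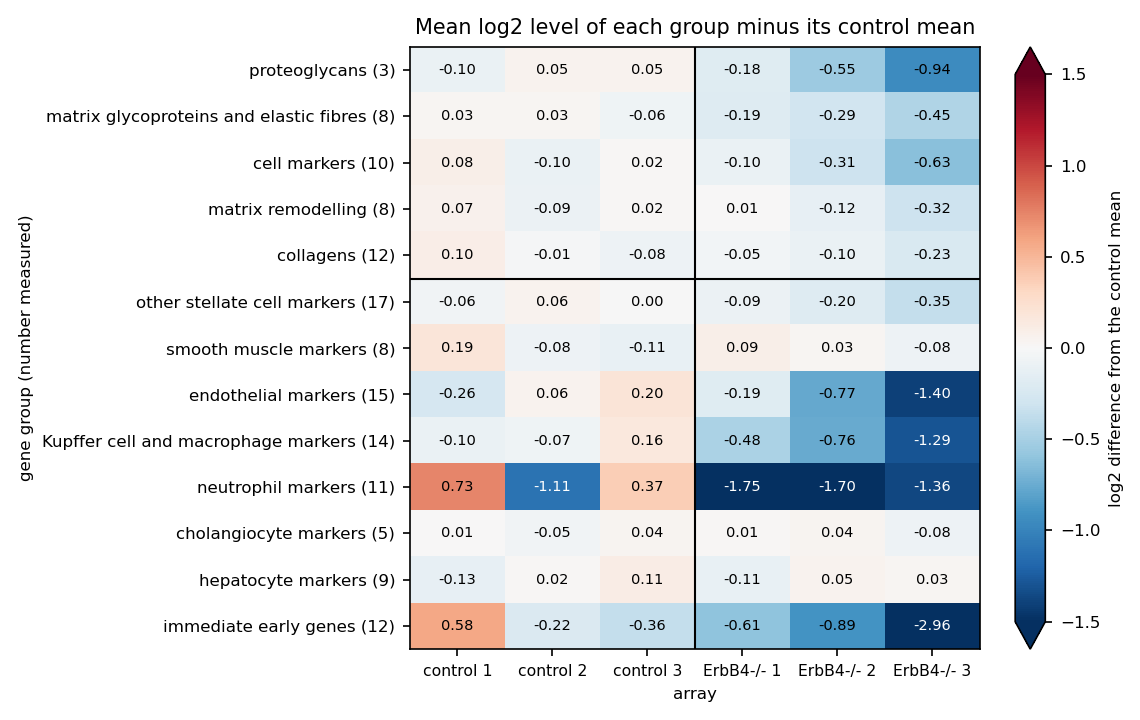
Mean log2 level of each gene group on each array minus its control mean, as colour and number, with the number of genes measured in brackets. The 5 groups of stellate cell and matrix genes stand above the line. Other stellate cell markers, markers of other cell types and immediate early genes stand below it. ErbB4-/- replicate 3 is lowest for all 5 groups above the line, from -0.94 for proteoglycans to -0.23 for collagens.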

How the data were processed

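Per the labels' protocols, total RNA extracted with Trizol was biotin-labelled using Affymetrix kits. The deposited values, processed by the authors, hold 1 log2 expression value for each probe set on each array. The sources used here do not give how background, normalization and summarisation were handled, and the scale was inferred from the range of the values. Of 41345 probe sets 23521 carry 1 gene symbol, 1814 several, and 16010 are unnamed here. In 57.5% of genes, and in 16 of the 41 described, at least 2 arrays share a value to 6 decimals, which lowers some SDs.

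Tests were two-sided and used limma 3.58.1 (R 4.3.3, lmFit then eBayes), genotype being the only term. The submitters describe their samples as biological replicates. The fit was checked on simulated data with the 22180 genes, where 68.5% of 200 genes planted at a log2 difference of 1 were recovered. Apart from 0, no smaller difference was planted. All 41 genes described differed by less than 1 in size, so the check does not cover differences of their size. The genes, the lists and the alternatives were chosen with earlier results of these data known. Values on every array are given for all proteoglycans, the 4 genes of smallest p in each other role group, and Col1a1, Col1a2, Col3a1, Col4a1, Col4a2, Acta2, Lrat, Des, Pdgfrb and Fn1. Of each other list up to 3 genes of smallest p are named. Reln, Itga2, Colec11, the higher stellate cell markers and the plotted Timp2 and Col18a1 were added after their values were seen. Alternatives covered normalization, a filter on dim probe sets, the probe set rule, all rows tested, the prior, array weights, a replicate block, the labelled week, left-out arrays and a threshold of 0.1. Figures were drawn with matplotlib 3.10.9.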

Additional observations from a re-analysis of the deposited data

How the results depend on the processing

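No gene of the 41 passed under any alternative, with a lowest adjusted p of 0.352 once dim genes under the median level were dropped. The 1 gene of all 22180 that passed in limma was lost, with 0 passing, when all rows were tested, when the labelled week was a covariate, with any 1 array left out and without control replicate 1 and ErbB4-/- replicate 3 together. The replicate numbers were not taken as pairs. The deviations of same-numbered arrays correlated at -0.10, 0.03 and -0.05, which cannot settle whether the samples were paired. The fit with the replicate number as a block let 0 genes pass. In that limma fit 8 of the 41 had an unadjusted p under 0.05, against 7 without the block. In all, 12 of the 41 kept their sign under every alternative run and 29 did not.

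The labelled week moved the values most. With it as a covariate the median difference of the 41 genes was 0.11, of the cell markers 0.18, of the proteoglycans -0.14, of the matrix glycoproteins -0.090, of the remodelling genes 0.14 and of the collagens 0.081, and the cause was not tested. Dropping genes under the median level, which removes dim members, gave the glycoproteins -0.46 and the remodelling genes -0.27. Leaving out any 1 array gave medians from -0.23 to -0.12 for the 41 genes, -0.46 to -0.20 for cell markers, -0.82 to -0.40 for proteoglycans, -0.37 to -0.23 for glycoproteins, -0.15 to -0.00079 for remodelling genes and -0.18 to -0.063 for collagens. The values nearest 0 were those without ErbB4-/- replicate 3. The collagen median was -0.18 without control replicate 3, and the remodelling median -0.15 without control replicate 2, -0.13 without ErbB4-/- replicate 1 and -0.037 without control replicate 1. Genes lower without overlap numbered 10 to 19 with any 1 array left out, 14 without control replicate 2 and 19 without ErbB4-/- replicate 1, where fewer arrays raise the share of all genes to 7.43% and 8.47%. Without control replicate 1 and ErbB4-/- replicate 3 together there were 13, with 12.0% of all genes, and the median of the cell markers was -0.14 and of the collagens -0.030. That count was added after seeing the data.

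Signs turned as follows, none past the threshold. With the week as a covariate the differences were Pdgfra 0.44, Pdgfrb 0.23, Reln 0.11, Tagln 0.22, Vim 0.41, Hgf 0.14, Lum 0.21, Fn1 0.098, Tnc 0.75, Timp2 0.65, Timp3 0.32, Mmp2 -0.23, Mmp14 0.10, Col1a1 0.51, Col1a2 0.32, Col3a1 0.42, Col4a1 0.057, Col4a2 0.050, Col5a1 0.043, Col5a2 0.20, Col6a1 0.29, Col14a1 0.11 and Col15a1 -0.23. With array weights they were Des 0.038, Col3a1 0.0079 and Col15a1 -0.020, and with quantile normalization again Des 0.0095. Without control replicate 1 and ErbB4-/- replicate 3 together they were Des 0.075, Fn1 0.023, Tnc 0.22, Timp2 0.20, Mmp2 -0.029, Col1a2 0.054, Col3a1 0.18, Col6a1 0.057 and Col15a1 -0.11. With any 1 array left out the ranges that span 0 were Acta2 from -0.068 to 0.32, Col15a1 from -0.061 to 0.13, Col18a1 from -0.042 to 0.099, Col1a2 from -0.16 to 0.0059, Col3a1 from -0.18 to 0.13, Des from -0.12 to 0.15, Eln from -0.068 to 0.19, Fn1 from -0.19 to 0.061, Lox from -0.0062 to 0.12, Mmp2 from -0.071 to 0.21, Ngfr from -0.21 to 0.021, Timp2 from -0.30 to 0.079 and Tnc from -0.33 to 0.053. Precision is limited by the number of arrays: over all genes the median SE was 0.10.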
